A study of Mus musculus with 6 samples.

Results

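MiR-378 is a microRNA (miRNA) made from a hairpin in the gene Ppargc1b, and its levels were followed by arm and by library in mouse primary mesangial cells. These contractile cells hold up the capillaries of the kidney's filtering unit, the glomerulus. The members were the rows mmu-miR-378-3p and mmu-miR-378-5p, the products of both arms of the hairpin, and mmu-miR-378b, called miR-378-3p, miR-378-5p and miR-378b below. They are 3 of the 778 mature miRNAs in the table. The rows were chosen by name and with the difference between Control and TGF-b1 already known, so that difference is given as a description and no test of it is printed.

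Small RNA was sequenced from 6 libraries, 3 labelled Control and 3 labelled TGF-b1. The TGF-b1 cells received TGF-β1 (transforming growth factor β1, a fibrosis-promoting cytokine) at 10 ng/ml for 72 h, and no agent is named for Control. All cells were grown in 25.5 mM glucose with 20% foetal bovine serum and were used between passages 3 and 6. The comparison asked which miRNAs differ in abundance after the treatment. Strain, sex and age of the mice are not given in the sources used here, nor whether the 3 libraries of a group came from separate cultures, so their spread may be technical.

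The host gene Ppargc1b encodes PGC-1β, a coactivator that works with nuclear receptors to raise genes of mitochondria and fatty acid oxidation. MiR-378 is abundant in heart, skeletal muscle and brown fat, and it is known for a part in mitochondrial energy use. Reported targets of the products of its hairpin include the carnitine acetyltransferase gene Crat and the Mediator subunit gene Med13. Which arm acts on which target was not examined here. As with other miRNAs, 1 arm of the hairpin usually stays in the silencing complex as the guide and the other is mostly lost. On the NCBIM37 mouse genome, the build of the study's RNA reads, Ppargc1b spans chromosome 18 from 61457790 to 61560085 on the minus strand and is protein-coding. The RefSeq gene table of GRCm38.p6 places the hairpin, Mir378a, inside the span of Ppargc1b.

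Other mouse loci make miRNAs of the same family, whose reads can be assigned to one another because the mature sequences are nearly identical. In RefSeq (GRCm38.p6) the hairpin of miR-378b, Mir378b, lies at chr11:88352773-88352864 on the plus strand, that of miR-378c, Mir378c, at chr14:46954830-46954928 on the minus strand, and that of miR-378d, Mir378d, at chr10:126710282-126710391 on the minus strand. MiR-378c and miR-378d are not among the rows analysed here. Levels of the miR-378 rows are therefore uncertain to the extent that reads were shared among them, and no member's sequence is printed here.

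Levels are in RPM, meaning reads per 1000000 of a library's total. Library totals, recovered from the deposited values, were 16478281 to 17623671 reads in Control and 17086815 to 20169254 in TGF-b1, so 1 read was worth 0.0496 to 0.0607 RPM. Of that total, the rows held 79.6% ± 0.142 for Control against 72.3% ± 0.752 for TGF-b1. Here and below, ± after a mean level or share is the SD over n = 3 libraries of a group. The median difference in log2(RPM + 1) over the 408 tested miRNAs was -0.17. The choice of scaling therefore bears on every difference below. Intervals on reads cover counting error only, because PCR reads without molecular identifiers are not independent molecules.

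The 3p arm was the abundant product and was lower in every TGF-b1 library than in any Control library. MiR-378-3p had 386.8, 435.6 and 366.7 RPM in Control replicates 1 to 3, from 6373, 7267 and 6463 reads. It had 179.7, 167.0 and 178.0 RPM in TGF-b1 replicates 1 to 3, from 3625, 2991 and 3041 reads. The lowest Control library lay 2.04-fold above the highest TGF-b1 library. In bulk libraries, fewer cells of a type and less of the miRNA in each cell cannot be told apart.

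The mean level of miR-378-3p was 396.4 ± 35.4 RPM in Control and 174.9 ± 6.92 RPM in TGF-b1, so the TGF-b1 mean was 44.1% of the Control mean. The difference in log2(RPM + 1) was -1.17 ± 0.10 (SE). Replicate spread was 8.94% of the mean in Control and 3.96% in TGF-b1, while counting error was at most 1.25% and 1.83%, so depth did not limit these values. As background, the fit over the 408 tested miRNAs called 7.84% lower and 4.41% higher by more than 1 on the log2 scale. At any size of difference 31.9% were called lower and 17.4% higher. The groups were fully separated with TGF-b1 on the low side for 36% and on the high side for 20.8%. Since this contrast chose miR-378-3p, no call is given for it and nothing is read from these shares.

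**Figure D1:**
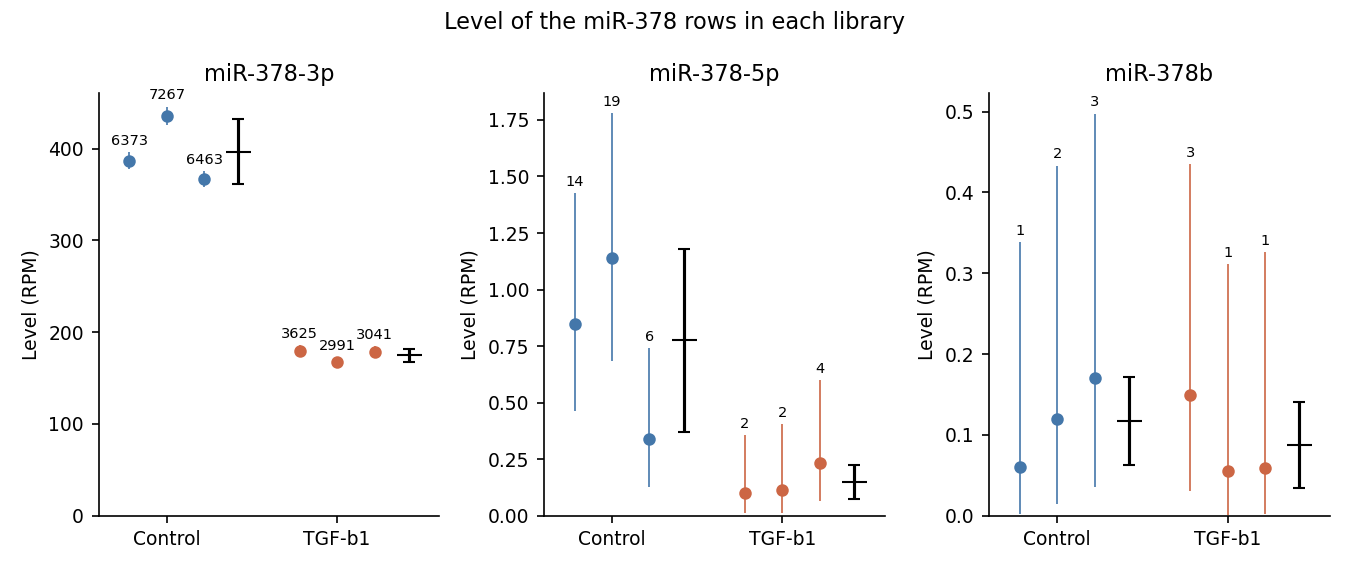
Level in RPM of miR-378-3p, miR-378-5p and miR-378b in each library (points, replicates 1 to 3 from left to right, with 95% Poisson intervals and the number of reads), with the group mean ± SD (n = 3) as a black bar. MiR-378-3p is separated between the groups on 2991 to 7267 reads a library, miR-378-5p on 2 to 19 reads a library, and miR-378b overlaps at 1 to 3 reads.

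The size of the difference in miR-378-3p depended on how libraries were scaled, while the groups were separated under each of the 6 scalings. With TMM scaling, which assumes that most miRNAs do not change, the levels were 345.7, 389.0 and 368.8 per 1000000 scaled reads in Control and 188.3, 186.0 and 189.9 in TGF-b1. The difference in log2 was then -0.96, and the TGF-b1 mean was 51.1% of Control. Upper-quartile scaling left the smallest difference, -0.86, with 322.9 per 1000000 in the lowest Control library and 204.6 in the highest TGF-b1 library. Relative to the summed rows, the difference was -1.03. The scalings thus lay on both sides of a difference of 1 in size.

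**Figure D2:**
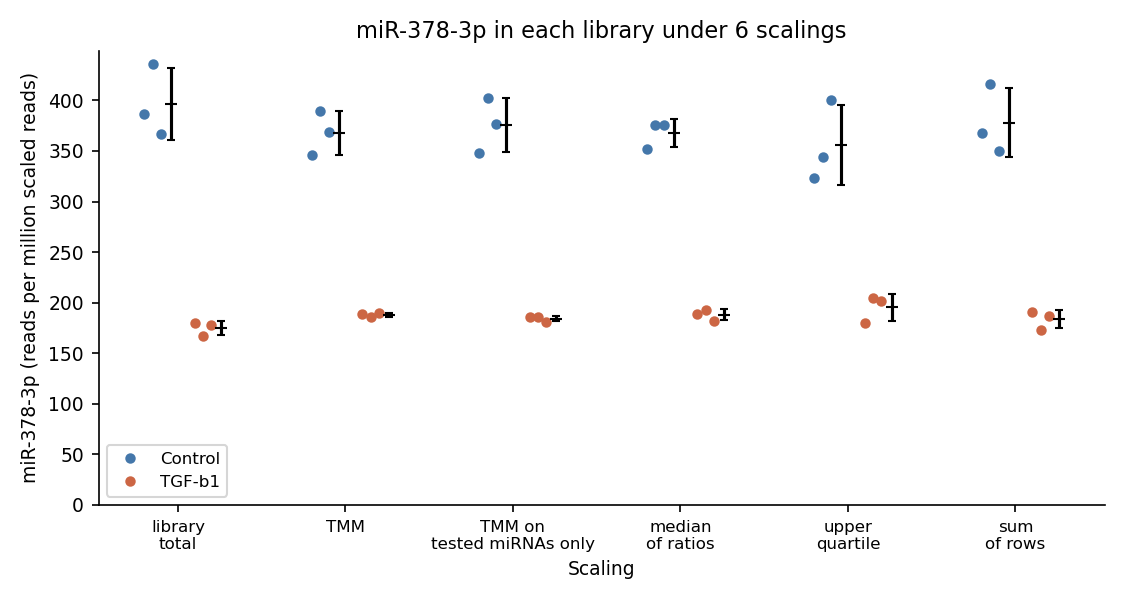
Level of miR-378-3p per 1000000 scaled reads in each library (points) under 6 scalings of the same reads, with mean ± SD (n = 3) as black bars. The TGF-b1 mean goes from 44.1% of the Control mean with library totals to 54.9% with upper-quartile scaling, and no TGF-b1 library reaches a Control library.

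The 5p arm was rare and was also lower in TGF-b1. Control replicates 1 to 3 held 14, 19 and 6 reads of miR-378-5p, or 0.850, 1.14 and 0.341 RPM. The TGF-b1 replicates held 2, 2 and 4 reads, or 0.0992, 0.112 and 0.234 RPM. TGF-b1 replicates 1 and 2 were under the detection floor of 3 reads. The groups did not overlap, but their nearest libraries differed by 2 reads.

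Mean levels of miR-378-5p were 0.776 ± 0.404 RPM in Control and 0.148 ± 0.0746 RPM in TGF-b1. Summed over libraries, 39 Control reads and 8 TGF-b1 reads gave a TGF-b1 to Control ratio of 0.189, with an exact Clopper-Pearson interval of 0.0762 to 0.410. That interval covers counting error and not the spread between libraries. The row did not pass the filter on low counts and was not among the 408 tested miRNAs. Its difference in log2(RPM + 1) of -0.60 was held small by the pseudocount and was -1.73 with a pseudocount of 0.1.

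MiR-378b was at the limit of detection in both groups. Control replicates 1 to 3 held 1, 2 and 3 of its reads and the TGF-b1 replicates 3, 1 and 1, or between 0.0558 and 0.170 RPM. The groups overlapped, and no ratio is given because no library exceeded 3 reads. A difference was not detectable at this depth. Over the 6 libraries miR-378b had 11 reads beside 29760 of miR-378-3p.

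The arms were very unequal in all 6 libraries. The 3p arm took 99.8% of the reads of both arms in Control replicate 1 (Wilson 95% interval 99.6% to 99.9%), and its share ran from 99.7% in Control replicate 2 to 99.9% in TGF-b1 replicate 1. Group means were 99.8% ± 0.0875 in Control and 99.9% ± 0.0411 in TGF-b1. Control replicate 3, with 1077 reads of the 3p arm for each read of the 5p arm, lay inside the TGF-b1 range of 760.2 to 1812, so the groups overlapped. The ratio rested on 2 to 4 reads of the 5p arm in each TGF-b1 library.

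Such dominance of 1 arm was ordinary for abundant hairpins. In Control the ratio of 3p to 5p reads was 515.5, against a median of 510.6 for the ratio of the major to the minor arm over 58 hairpins with both arms listed and the major arm at 100 RPM or more. MiR-378 was number 29 of the 58 in order of that ratio. The 3p arm was the major one in 24 of them.

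Among the 778 rows miR-378-3p was number 53 by Control mean and number 62 by TGF-b1 mean. Its rank was 53, 53 and 54 in Control replicates 1 to 3 and 63, 59 and 61 in TGF-b1 replicates 1 to 3. MiR-378-5p was number 381 by Control mean, and its 6 nearest neighbours in Control level, from miR-191-3p at 0.809 ± 0.277 RPM to miR-329-5p at 0.768 ± 0.119, overlapped it as well. These are orders of RPM, and cloning efficiency differs between miRNAs.

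The Control ranges of the 6 neighbours of miR-378-3p all overlapped its own, and their differences from it were not tested. Compared within libraries, miR-101a-3p and miR-152-3p were above it in every Control library and miR-128-3p was below it in every one. The order of the others changed between libraries. Just above stood miR-101a-3p (456.9 ± 29.4 RPM), miR-152-3p (450.9 ± 28.5) and miR-143-5p (417.1 ± 126), and just below miR-1981-5p (380.7 ± 11.2), miR-30a-3p (358.7 ± 20.7) and miR-128-3p (356.3 ± 28.6). In TGF-b1 the same miRNAs spread from 121.3 RPM for miR-101a-3p to 403.9 for miR-152-3p, with miR-378-3p at 174.9. Differences in log2(RPM + 1) ran from -1.92 for miR-101a-3p to -0.16 for miR-152-3p. Of the 82 tested miRNAs with a Control mean of 100 RPM or more, 7 had a lower difference than miR-378-3p. It was number 22 from the lowest among all 408.

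**Figure D3:**
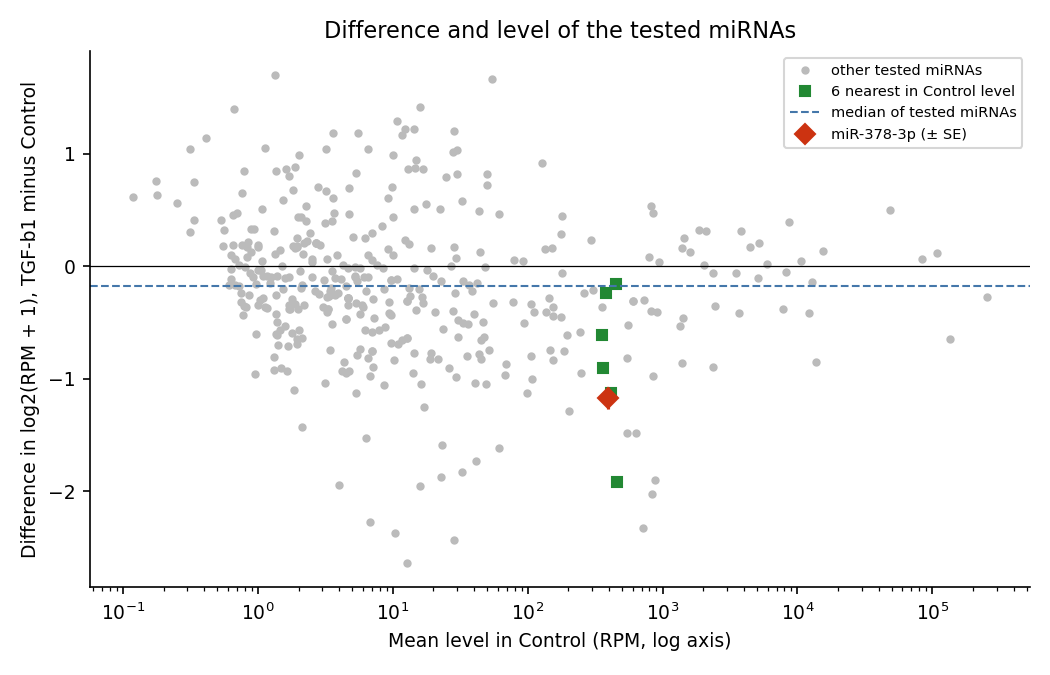
Difference in log2(RPM + 1), TGF-b1 minus Control, against mean Control level on a log axis for the 408 tested miRNAs (points), with the 6 miRNAs nearest to miR-378-3p in Control level as squares and miR-378-3p as a diamond with its SE. The neighbours in level range from -1.92 to -0.16, with miR-378-3p at -1.17.

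The miRNAs whose pattern was most like that of miR-378-3p were miR-429-3p, miR-196b-3p, miR-340-5p, miR-3099-3p and miR-676-3p, by Pearson's r of log2(RPM + 1) over the 6 libraries. Their r ran from 0.996 to 0.998, and 98 of the tested miRNAs had an r above 0.9. These values describe 6 libraries in 2 groups, share the library totals, and follow mostly from the difference between groups. Within Control, miR-378-3p was highest in replicate 2 and lowest in replicate 3. All 5 of these miRNAs had that order, but their choice by r over the same libraries favours it, so it is no separate result. Among the 408 tested, 124 had that order, or 30.4%. MiR-378-5p had it as well, on 19, 14 and 6 reads.

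The mature sequences of the 5 miRNAs most like miR-378-3p in pattern (RefSeq, GRCm38.p6) are shown to compare their seeds, the bases 2 to 8 that pair with targets, printed in capitals.
miR-429-3p: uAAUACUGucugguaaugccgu
miR-196b-3p: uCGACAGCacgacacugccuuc
miR-340-5p: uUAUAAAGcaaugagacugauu
miR-3099-3p: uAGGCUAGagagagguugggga
miR-676-3p: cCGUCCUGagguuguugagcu
No seed was shared among them. The hairpin of miR-340-5p, Mir340, lies at chr11:50069702-50069799 on the plus strand within the span of the protein-coding gene Rnf130, that of miR-3099-3p, Mir3099, at chr7:6803587-6803670 on the plus strand within Usp29, and that of miR-676-3p, Mir676, at chrX:100381097-100381185 on the plus strand within Eda. Those of miR-429-3p, Mir429 at chr4:156053905-156053987, and miR-196b-3p, Mir196b at chr6:52230081-52230165, lie on the minus strand within the spans of long noncoding RNA genes.

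The 1 most like miR-378-3p in size was miR-676-3p, at 99.5 ± 11.8 RPM in Control and 45.0 ± 4.18 in TGF-b1, with a log2 difference of -1.12. MiR-340-5p was at 93.6 ± 5.32 and 65.9 ± 0.999 RPM, and miR-429-3p, of the epithelial miR-200 family, at 3.99 ± 0.567 and 0.290 ± 0.00953 RPM.

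**Figure D4:**
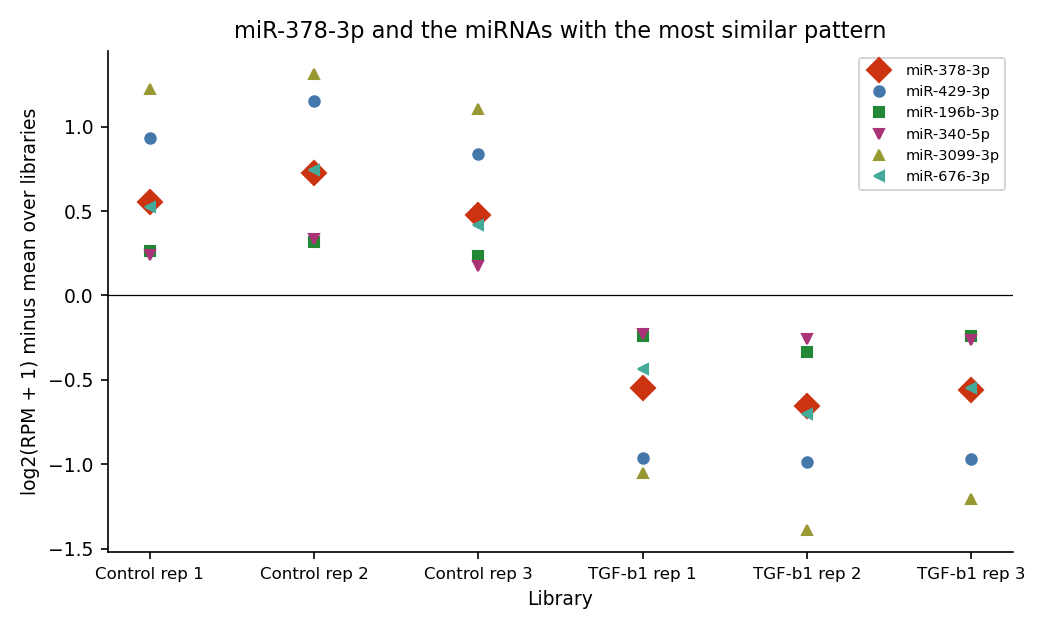
Log2(RPM + 1) of miR-378-3p and of the 5 miRNAs with the highest Pearson's r to it, each minus its own mean over the 6 libraries, by library. The size of the difference between groups varies among them, from miR-340-5p to miR-3099-3p. The order within Control is the same, which the choice by r over these libraries favours.

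MiRNAs that mark other cell types were checked beside these values. Of 7 striated muscle miRNAs, the tissue best known for miR-378, 4 were listed under the names chosen and summed to 3431 to 3635 RPM in Control and 3275 to 3455 in TGF-b1. Nearly all of that was miR-206-3p, at 3502 ± 114 and 3363 ± 90.1 RPM, while miR-133a-3p, miR-133b-3p and miR-499-5p had 0 to 6 reads a library. MiR-1a-3p, the mouse name of the list's miR-1-3p, was added after its values were seen and is not in that sum. It had 9.17 to 11.6 RPM over the 6 libraries. The level of miR-206-3p did not pass the test, with a log2 difference of -0.06 (limma adjusted p = 0.42).

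Of the 5 epithelial miRNAs, miR-200a-3p, miR-200b-3p and miR-429-3p were tested and called lower, as were 31.9% of all tested miRNAs. The list summed to 22.2 to 25.4 RPM in Control and 1.67 to 2.53 in TGF-b1. MiR-200c-3p and miR-141-3p had 0 to 2 reads a library and were not tested. In TGF-b1, miR-200b-3p and miR-429-3p went down to 0.351 and 0.279 RPM. Both passed the filter on low counts only through Control, which favours a lower call. Markers of endothelium and blood summed to at most 0.659 RPM in any library, and the tubule miRNAs miR-192-5p, miR-194-5p and miR-215-5p to 293.1 to 307.7 in Control and 342.2 to 365.5 in TGF-b1. Nearly all of the tubule sum was miR-192-5p, which rose by 0.23 on the log2 scale (limma adjusted p = 0.0396). MiR-194-5p rose by 0.54 (limma adjusted p = 0.0186), and miR-215-5p did not pass (limma adjusted p = 0.3). The neuronal miRNAs miR-124-3p and miR-9-5p summed to 2.06 to 2.40 RPM in Control and 1.40 to 1.93 in TGF-b1. Of these miR-124-3p was called lower, by 0.50 on the log2 scale (limma adjusted p = 0.0454), on 6 to 29 reads a library. It passed the filter on low counts only through Control, which favours a lower call. MiR-143-3p and miR-145-5p, abundant in smooth muscle and mesangial cells, summed to 1989 to 2271 RPM in Control and 2112 to 2579 in TGF-b1. Most of that was miR-143-3p, while miR-145-5p rose from 127.4 ± 26.7 to 238.6 ± 7.91 RPM (log2 difference 0.92, limma adjusted p = 0.00235). All TGF-b1 libraries lay above all Control ones for miR-145-5p, as they did for 20.8% of all tested miRNAs. How the calls in this paragraph vary with the scaling is not given here. The part of these cell types in the level of miR-378-3p was not tested.

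Other miRNAs of metabolism were compared with miR-378-3p through lists of 32 names, of which 29 were listed and 25 were tested. In the fit over all miRNAs 6 were higher and 10 were lower at a limma adjusted p under 0.05, or 24% and 40%, against 17.4% and 31.9% of all tested miRNAs. Their median log2 difference was -0.22, beside -0.17 for all tested. The lists were chosen with earlier results of these data known, so these counts describe the names chosen. The single lists below hold 5 to 8 tested names each, and their counts are likewise a description.

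Of the lipid and cholesterol list 0 of 5 tested were higher and 3 were lower, beside 17.4% and 31.9% of all tested miRNAs. MiR-27a-3p, which restrains fat cell formation, fell from 875.5 ± 82.9 to 251.2 ± 122 RPM, a log2 difference of -1.89 ± 0.28 (SE, limma adjusted p = 0.00134). TGF-b1 replicate 1, at 392.5 RPM, stood above replicates 2 and 3, at 184.7 and 176.5, a split that miR-378-3p did not show. MiR-27b-3p fell by 2.03 on the log2 scale, but it is nearly identical to miR-27a-3p and may share its reads. MiR-122-5p, the main liver miRNA, fell from 26.1 ± 1.72 to 13.5 ± 0.406 RPM. MiR-33-5p, from an intron of the cholesterol regulator gene Srebf2, was at 46.9 ± 9.20 and 33.7 ± 11.2 RPM and did not pass (limma adjusted p = 0.12), though it passed without TGF-b1 replicate 1 and with the replicate block. MiR-148a-3p did not pass either, at -0.26 (limma adjusted p = 0.277).

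In the insulin and glucose list 1 of 6 was higher, 3 were lower and 2 did not pass. Of all tested miRNAs 17.4% were higher and 31.9% lower. MiR-107-3p fell from 2435 ± 126 to 1913 ± 184 RPM, a log2 difference of -0.35 that passed with library totals but under none of the other 5 scalings, nor with edgeR or DESeq2. MiR-103-3p, which has the same seed and likewise comes from introns of Pank genes of coenzyme A synthesis, was at 5968 ± 276 and 6039 ± 212 RPM (limma adjusted p = 0.807), but it passed as higher with TMM scaling and with edgeR. MiR-29b-3p and miR-29c-3p fell by 0.62 and 0.75 on the log2 scale, and miR-29a-3p, of the same seed, rose by 0.21. The falls of miR-29b-3p and miR-29c-3p, which may share reads, did not pass with upper-quartile scaling. The rise of miR-29a-3p did not pass with the replicate block or without Control replicate 1, Control replicate 3, TGF-b1 replicate 2 or TGF-b1 replicate 3, nor with no filter on low counts. MiR-143-3p was at 2029 ± 125 and 2052 ± 258 RPM and did not pass (limma adjusted p = 0.945).

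Of the list of mitochondria and PGC-1 coactivators 3 of 6 were higher, 1 was lower and 2 did not pass. The shares over all tested miRNAs were 17.4% higher and 31.9% lower. MiR-485-5p rose from 14.4 ± 0.346 to 34.9 ± 2.05 RPM, a log2 difference of 1.22 ± 0.12 (SE, limma adjusted p = 0.000156), and miR-485-3p rose by 0.68. MiR-23a-3p, reported to act on PGC-1α, the paralogue of PGC-1β, rose by 0.54. MiR-181c-5p, which acts on mitochondrial transcripts, fell from 69.6 ± 0.309 to 37.8 ± 2.91 RPM. The hypoxia miRNA miR-210-3p was at 22.3 ± 4.01 and 32.2 ± 7.38 RPM (limma adjusted p = 0.0665) and passed under each of the other 5 scalings and with edgeR and DESeq2. MiR-34a-5p, which acts on Sirt1, did not pass (-0.22, limma adjusted p = 0.413).

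Of the brown fat list 2 of 8 were higher and 3 were lower, beside 17.4% and 31.9% of all tested miRNAs. MiR-455-3p went up from 1.34 ± 0.181 RPM in Control to 6.60 ± 0.305 RPM, which is a log2 difference of 1.70 ± 0.13 (SE, limma adjusted p = 4.62e-05), and miR-455-5p of the same hairpin by 1.40. MiR-455-5p had 6 to 73 reads a library. It passed the filter on low counts only through TGF-b1, which favours a higher call. MiR-30c-5p fell from 61.2 ± 10.7 to 20.0 ± 7.96 RPM, miR-30b-5p fell by 1.06 and miR-196a-5p fell by 0.83 on the log2 scale. The fall of miR-30b-5p did not pass without Control replicate 1, Control replicate 2 or TGF-b1 replicate 2. MiR-155-5p, miR-193b-3p and miR-365-3p did not pass, with log2 differences of 0.07, 0.02 and 0.26, though miR-365-3p passed with upper-quartile scaling.

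**Figure D5:**
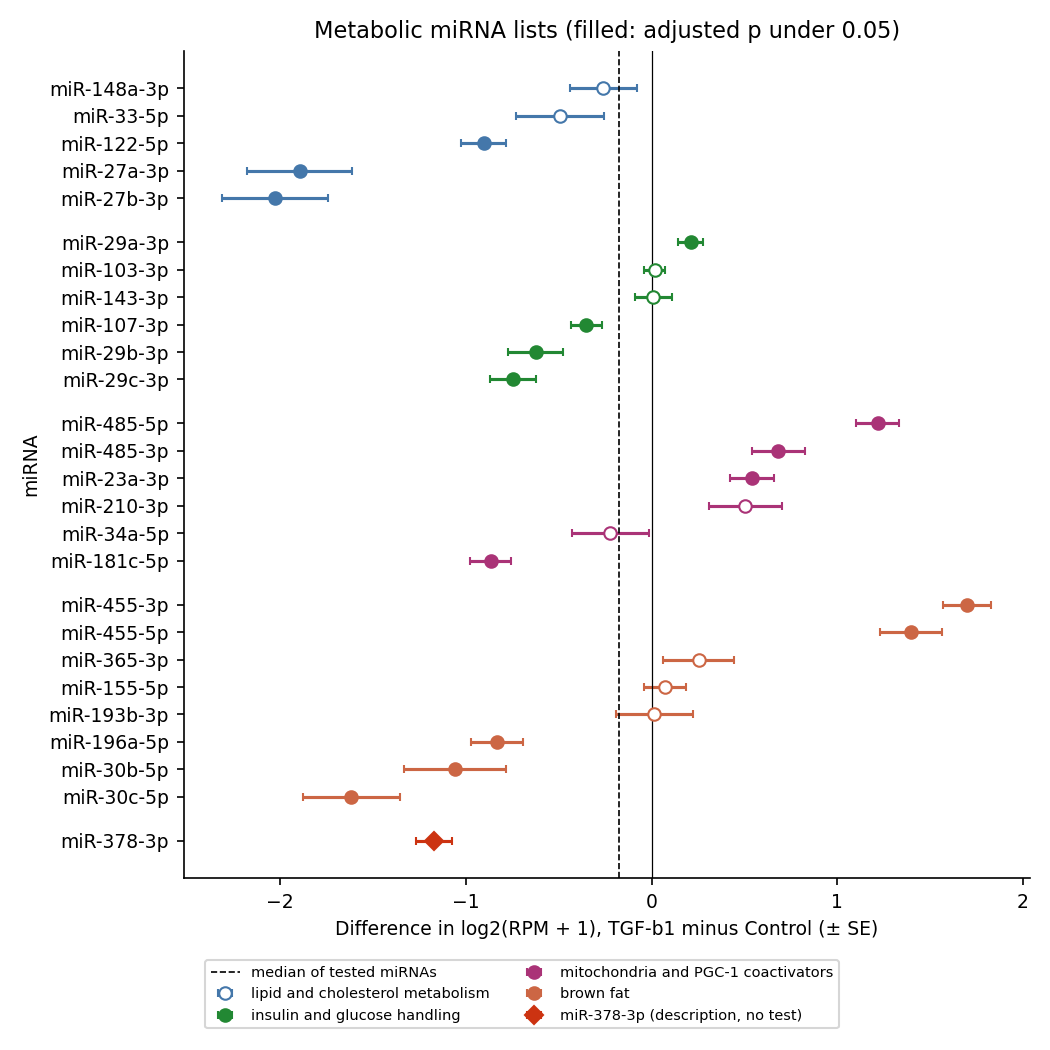
Difference in log2(RPM + 1), TGF-b1 minus Control, with its SE for the 25 tested miRNAs of the metabolic lists, filled where the limma adjusted p was under 0.05, and for miR-378-3p. MiR-378-3p, at -1.17, lies between miR-30b-5p at -1.06 and miR-30c-5p at -1.62, and list members lie on both sides of 0.

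Like miR-378, many miRNAs lie within protein-coding genes. Of 26 such miRNAs on a list of named hosts, 22 were tested, 2 were higher and 7 were lower, or 9.09% and 31.8%, beside 17.4% and 31.9% of all tested miRNAs. Their median log2 difference was -0.14, beside -1.17 for miR-378-3p. The 2 that were higher, miR-455-3p and miR-455-5p, are the arms of 1 hairpin, in Col27a1. MiR-455-5p passed the filter on low counts only through TGF-b1. Of the 7 that fell, miR-26a-5p, from Ctdspl and Ctdsp2, had the lowest difference, from 543.6 ± 38.1 to 194.5 ± 18.2 RPM, or -1.48 ± 0.10 (SE, limma adjusted p = 4.17e-05). The others were miR-25-3p of Mcm7, miR-15b-5p and, at 1 of its loci, miR-16-5p of Smc4, miR-26b-5p of Ctdsp1, miR-140-3p of Wwp2 and miR-107-3p of Pank1, at -0.86 to -0.35. Of these, miR-140-3p, at -0.38, did not pass with TMM, median-of-ratios or upper-quartile scaling, nor with edgeR or DESeq2. MiR-26b-5p, at -0.53, did not pass with median-of-ratios or upper-quartile scaling or with DESeq2, and miR-16-5p, at -0.75, did not pass with upper-quartile scaling. The RNA of the hosts was not analysed here.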

How the data were processed

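Small RNA of 3 Control and 3 TGF-b1 libraries was sequenced on an Illumina instrument. Per the methods of the study and the labels, reads were trimmed and compared with known miRNAs using Bowtie, and how reads matching several miRNAs were counted is not stated. The authors deposited 1 table whose header says TPM. These RPM values were made by the authors as reads per 1000000 of a library total, with no length in them. Whole reads were recovered from the RPM steps, and 100% of the values were whole within 0.002 reads.

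Differences were tested with limma 3.58.1 in R 4.3.3 on log2(RPM + 1), using a trended prior and no covariate beyond group. FilterByExpr (edgeR 4.0.16, minimum count 10) kept 408 miRNAs, and p-values were adjusted by Benjamini-Hochberg. Calls needed an adjusted p under 0.05, and an absolute difference above 1 where so stated. The pseudocount of 1 understates differences of low miRNAs. On the recovered reads, edgeR and DESeq2 1.42.0 were alternatives; edgeR with TMM called 95 miRNAs higher and 93 lower at any size of difference, against 71 and 130 with limma, and 49 and 35 above 1, against 18 and 32. The fits were also run on simulated reads with changes of equal size in both directions. That run does not bear on the choice of scaling, and none of its results is used here. Chi-square per degree of freedom between libraries of a group was 38.5 to 117.5, far above counting noise, and no library was a copy.

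The members, lists and alternatives were chosen with earlier results of these data known. Named miRNAs were the members, called list members plus up to 3 others of each list, 5 most alike by Pearson's r, and 3 neighbours on each side in Control level. Hosts came from GENCODE vM1, and sequences matched 581 of 778 rows.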

Additional observations from a re-analysis of the deposited data

How the results depend on the processing

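The direction of the miR-378-3p and miR-378-5p differences held under each alternative run. For miR-378-3p, -1.17 became -0.96 under TMM, median of ratios and DESeq2, -0.97 under edgeR, -0.86 under upper quartile, -1.03 relative to the sum of the rows and -1.02 under TMM on the tested miRNAs only (added after seeing the data). It was -1.17 with the replicate block and -1.23 to -1.10 when each library was left out. Same-numbered deviations correlated at -0.08, -0.21 and -0.34. These values do not show pairing by number and cannot exclude it, and other pairings were not tried. For miR-378-5p, -0.60 became -1.73 and -0.086 with pseudocounts of 0.1 and 10, -2.13 with edgeR and -2.17 with DESeq2, and -0.79 to -0.46 when each library was left out. The 3p share differed by 0.106 percentage points, 0.0715 to 0.156 when each library was left out, while the log2 ratio of the arms with a pseudocount of 1 turned to -0.57, because the pseudocount exceeds most levels of the 5p arm. Calls over all miRNAs above an absolute difference of 1 were 18 higher, against 31 (TMM), 30 (median of ratios), 35 (upper quartile), 32 and 2 with pseudocounts of 0.1 and 10, 49 with edgeR and 46 with DESeq2, and 32 lower, against 19 with upper quartile and 54 and 15 with those pseudocounts. At any difference 130 were lower, against 73 with upper quartile and 72 with DESeq2. Of the list of named hosts 2 were higher, against 4 with TMM and 1 with a mean of at least 50 reads, and 7 lower, against 4 with median of ratios, 3 with upper quartile and 4 with DESeq2. Metabolic list counts stayed within 1.5 times of 6 higher and 10 lower. A minimum of 50 reads tests fewer miRNAs. Elsewhere the cause was not tested. Depth limits miR-378-5p and miR-378b.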
